A study of Mus musculus with 12 samples.

Results

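The interferon-induced GTPases of the GBP and IRG families were followed in differentiated mouse neurospheres. Members were the 10 genes Gbp2, Gbp3, Gbp5, Gbp6, Gbp7, Irgm1, Irgm2, Igtp, Iigp1 and Ifi47, and every non-control array probe whose RefSeq identifier belonged to one of them was kept, whatever its values. This gave 13 of 55681 probes, 6 for GBP and 7 for IRG genes. Gbp6, Irgm1 and Iigp1 had 2 probes each and the others had 1. All 13 counted as expressed, as did 29361 probes in all. An expressed probe had a signal well above background for either condition of some comparison on 3 or more of its 4 arrays.

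Neurospheres, aggregates of neural progenitor cells, were grown from the telencephalon of C57BL/6 mouse embryos at day 13 and differentiated for 7 days. WT neurospheres came from wild-type embryos. The other 3 conditions all carried the APPswe and PS1dE9 transgenes of a familial Alzheimer's disease model and were left untreated (APP_WT), treated with 1 µM bradykinin, a peptide agonist of the B2 kinin receptor (BK_APP), or treated with 1 µM of the B2 receptor antagonist HOE-140 (HOE_APP), in both cases on days 0, 3 and 6. Treated WT neurospheres were not among the samples, so both treatments were measured in transgenic cultures only. APP_WT was compared with WT, and BK_APP and HOE_APP each with APP_WT, on 4 2-color Agilent arrays per comparison with dyes swapped after the second replicate. The design counts 4 APP_WT replicates, so the 3 comparisons share their APP_WT samples. The HOE_APP arrays carry labels that give HOE-140 as the treatment of either channel. The HOE_APP direction was taken from the labels of the first channel and the sample titles and is likely only, and all signs given for HOE_APP turn if the labels of the second channel hold. The arrays with WT were on one slide and the 8 with treated neurospheres on another, so differences between these sets of arrays and the slide cannot be told apart.

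Guanylate-binding proteins (GBPs) and immunity-related GTPases (IRGs) are among the most strongly interferon-induced proteins of mouse cells, and they coat and break the vacuoles in which intracellular bacteria and parasites live. Interferon-γ acts through GAS elements in the DNA and through the factor IRF1, while interferons of type I act through the interferon-stimulated response element (ISRE), which a complex with IRF9 binds. In the brain, microglia and astrocytes express both families after exposure to interferon. Among the IRGs, Irgm1, Irgm2 and Igtp are regulators that hold the effector IRGs, Iigp1 and Ifi47 among them, inactive on the membranes of the host cell.

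The sequence upstream of 7 members is shown because it holds ISRE-type elements. A RefSeq promoter table of build GRCm38.p6, with 250 bases before and 50 after each annotated start, held 8 of the 10 members, all but Gbp6 and Iigp1. It was searched for an ISRE core, GAAANNGAAA on either strand, and a GAS core, TTCNNNGAA, which is its own reverse complement. An ISRE core lay in the window of 7 of the 8 genes and of 3.44% of all 32851 promoters. A GAS core lay in that of 4 of the 8 and in 8.3% of all promoters, and both cores together in the same 4 genes (Gbp5, Gbp7, Igtp and Irgm2) and in 0.454% of all. Ifi47 held neither core, and of the pair of starts annotated for Gbp3 only the one shown held a match. The stretches below end at the base before the start, read 5′ to 3′ on the strand of the gene, and carry the cores in capitals.
Gbp2, chr3:142620599-142620662, plus strand: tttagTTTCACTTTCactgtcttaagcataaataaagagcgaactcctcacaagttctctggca
Gbp3, chr3:142559994-142560043, plus strand: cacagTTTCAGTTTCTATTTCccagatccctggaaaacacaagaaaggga
Gbp5, chr3:142496764-142496933, plus strand: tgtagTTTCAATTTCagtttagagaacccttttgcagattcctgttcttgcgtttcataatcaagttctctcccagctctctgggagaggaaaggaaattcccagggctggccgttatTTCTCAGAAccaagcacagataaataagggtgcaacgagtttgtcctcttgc
Gbp7, chr3:142530225-142530335, plus strand: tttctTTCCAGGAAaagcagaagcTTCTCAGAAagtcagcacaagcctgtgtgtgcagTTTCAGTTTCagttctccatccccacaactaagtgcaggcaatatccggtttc
Irgm1, chr11:48871421-48871455, minus strand: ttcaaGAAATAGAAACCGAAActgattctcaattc
Irgm2, chr11:58214897-58214976, plus strand: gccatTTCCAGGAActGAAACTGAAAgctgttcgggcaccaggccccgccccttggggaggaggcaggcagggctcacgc
Igtp, chr11:58199506-58199555, plus strand: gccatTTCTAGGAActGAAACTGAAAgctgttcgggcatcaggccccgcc

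The ISRE cores began between 24 and 165 bases before the start. The GBP genes of chromosome 3 carried it in the reverse orientation (TTTCNNTTTC) and the IRG genes of chromosome 11 as written. In Gbp3 and Irgm1 a pair of cores overlapped, at 45 and 39 bases before the start in Gbp3 and at 30 and 24 in Irgm1. In Igtp and Irgm2 the GAS core began 11 bases before the ISRE core, and the windows of these neighbouring genes, aligned on the ISRE core without gaps, were identical at 184 of 270 bases (68.1%). Gbp5 alone had its ISRE core farther out, at 165, with a GAS core at 52 and another at 245 outside the stretch shown. These are matches of letters, and binding was not measured.

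**Figure D1:**
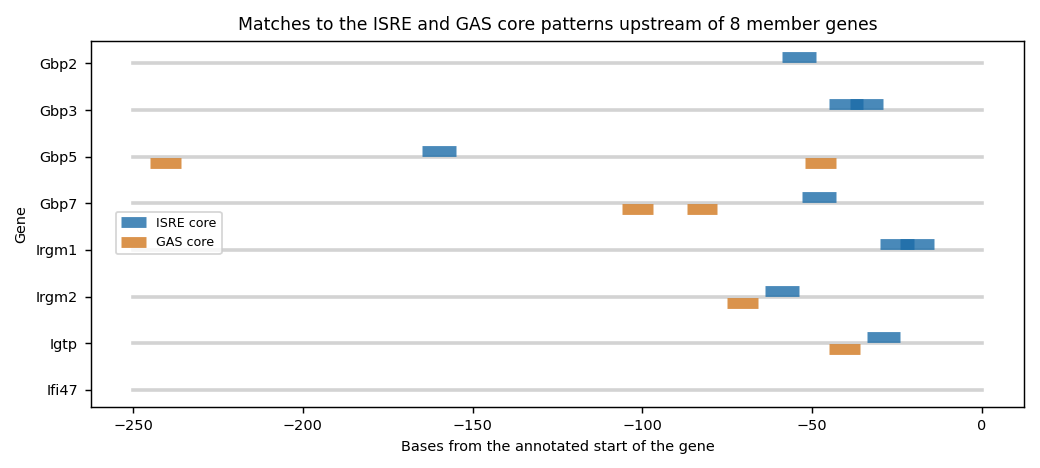
Position of the matches to the ISRE core (upper bars) and the GAS core (lower bars) on the 250 bases before the annotated start of 8 member genes, in bases from the start. ISRE cores lie within 64 bases of the start in all genes that have one except Gbp5, where it begins at 165.

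The first comparison asked how the GTPases differ between untreated transgenic and wild-type neurospheres. In APP_WT, 12 of the 13 probes were higher than in WT at an adjusted p below 0.05 and none was lower, against 11.6% of all expressed probes higher and 18.5% changed in either direction. The log2 fold changes of these members ran from 0.28 to 2.46 with a median over the 13 of 1.08, beside a median of 0.00461 over all expressed probes. All 6 GBP probes and 6 of 7 IRG probes passed. Each p given for a probe is from a moderated test in limma over the 12 arrays, adjusted by Benjamini-Hochberg over the 29361 expressed probes.

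Among the GBPs, Gbp3 had the highest log2 fold change with the background correction used here, whereas with the log ratio of the scanner software Gbp5 lay above it (3.53 and 3.00). The log2 ratios of Gbp3 on arrays 1 to 4 were 2.09, 2.45, 2.43 and 2.86, with a mean of 2.46 ± 0.31 (SD, n = 4), which is 5.50-fold (limma, adjusted p = 3.03e-07). Gbp2, a GTPase that is recruited to pathogen vacuoles, had log2 ratios of 1.78, 1.97, 2.06 and 2.41, or 4.15-fold (limma, adjusted p = 4.48e-07). Array 1 was lowest and array 4 highest for both genes. For Gbp5, which promotes assembly of the NLRP3 inflammasome, the ratios were 2.12, 1.99, 1.89 and 2.38, or 4.27-fold (limma, adjusted p = 1.59e-06). Gbp7, which delivers antimicrobial cargo to vacuoles, had lower ratios of 0.74, 1.07, 1.16 and 1.35 (2.11-fold, limma, adjusted p = 1.60e-05). Both Gbp6 probes rose, but not to the same degree: probe A_55_P2052380 gave 0.49, 0.52, 0.54 and 0.39, and probe A_55_P2052385 gave 1.33, 0.98, 0.66 and 0.94. Their means of 0.49 and 0.97 had adjusted limma p-values of 0.000205 and 4.70e-05, and their order was the same on all 4 arrays.

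The regulatory IRGs were higher as well. For Igtp the log2 ratios were 1.80, 2.06, 1.75 and 2.16 (3.84-fold, limma, adjusted p = 3.67e-07). Its probe is spotted 10 times on the array, and over the 8 to 10 spots kept per array the SD was between 0.0253 and 0.158. Irgm2 had log2 ratios of 1.40, 1.46, 1.39 and 1.88 (2.90-fold, limma, adjusted p = 6.51e-07), with array 4 apart from the other arrays. The Irgm1 probes differed in size: A_51_P262171 gave 1.34, 1.71, 1.44 and 1.64, and A_55_P1981479 gave 0.76, 1.01, 1.13 and 1.33. Both rose, by means of 1.53 and 1.06 (limma, adjusted p = 1.69e-07 and 1.02e-06).

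The effector IRGs had smaller ratios. Ifi47 had log2 ratios of 0.44, 0.54, 0.66 and 0.82 (1.53-fold, limma, adjusted p = 3.55e-05). Of the Iigp1 probes, A_55_P1990633 gave 0.28, 0.28, 0.27 and 0.39, all above 0, with a mean of 0.30 that did not pass (limma, adjusted p = 0.0582). With the replicate number as a block it passed (adjusted p = 0.0151), and it passed under 7 of 13 alternatives in all, with adjusted p between 0.0151 and 0.248. The other Iigp1 probe, A_55_P2410304, gave −0.14, 0.14, 0.70 and 0.41. Its mean of 0.28 ± 0.36 (SD, n = 4) was called (limma, adjusted p = 0.0259) although its SD over arrays exceeded the mean and array 1 lay below 0, and it passed under only 5 of the 13 alternatives, with adjusted p between 0.00517 and 0.208. The dye coefficient of the fit takes out any difference between arrays 1 and 2 and arrays 3 and 4. Dyes were swapped between these sets, so a dye effect and a difference between replicates cannot be told apart. The limma standard errors and p-values leave this spread out. No call for Iigp1 is therefore firm, whereas the other 11 probes passed under all 13 alternatives, with 0.0109 as the highest adjusted p.

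**Figure D2:**
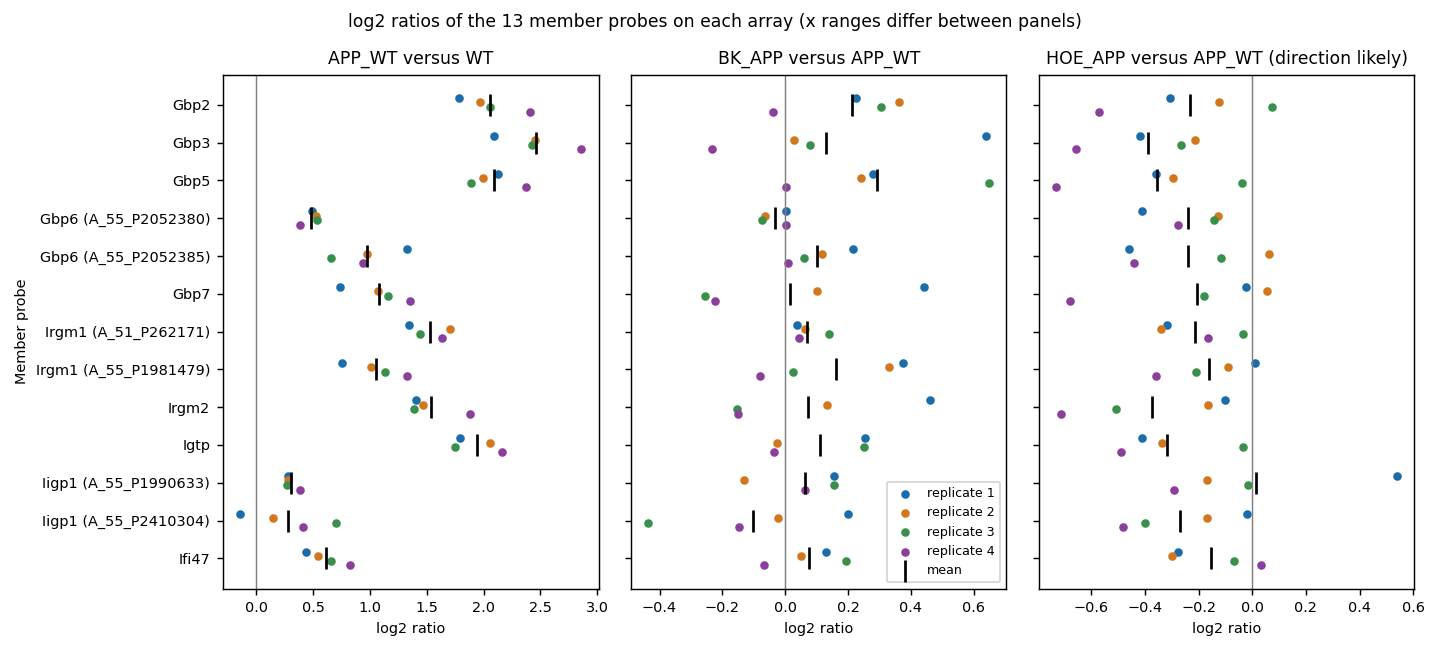
log2 ratios of the 13 member probes on each of the 4 arrays of every comparison (points, colored by replicate) with their mean (bar). In APP_WT versus WT all points but 1 of Iigp1 lie above 0, whereas in BK_APP, on a narrower axis, most probes have points on both sides of 0 or close to it, and in HOE_APP 7 of the 13 probes lie below 0 on all 4 arrays in the likely direction.

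The levels behind these ratios, given as log2 intensity per channel, showed how far apart the conditions were. Levels are compared within a probe only. Gbp2 lay at 9.59, 9.17, 9.15 and 8.99 in the 4 WT channels and between 11.01 and 11.50 in the 12 APP_WT channels of the 3 comparisons. For Gbp3 the WT channels lay at 7.76, 7.43, 7.46 and 7.47 and the APP_WT channels between 9.78 and 10.3, so WT and APP_WT did not overlap for either gene. WT lay at 7.49, 7.39, 7.64 and 7.68 for Igtp and APP_WT between 9.28 and 9.84, also apart. WT and APP_WT did overlap for Gbp6 probe A_55_P2052380 (WT up to 8.90, APP_WT from 8.88). They also overlapped for Iigp1 probes A_55_P1990633 (WT up to 6.81, APP_WT from 6.79) and A_55_P2410304 (WT up to 8.78, APP_WT from 8.51). The share of all expressed probes without overlap was not counted. In WT, Gbp5 (6.56, 6.33, 6.74 and 6.70) and Gbp7 had a signal clearly over background on a single array (1 of 4), as had Iigp1 probe A_55_P1990633, while all 13 probes had one in all 12 APP_WT channels. The fold changes of these dim probes depend on the background correction. With the log ratio of the scanner software, which uses another background correction, Gbp5 reached 3.53 in place of 2.10 and Gbp7 1.93 in place of 1.08, and the median over the members was 1.82 in place of 1.08. Gbp2, bright in both conditions, moved from 2.05 to 2.17.

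**Figure D3:**
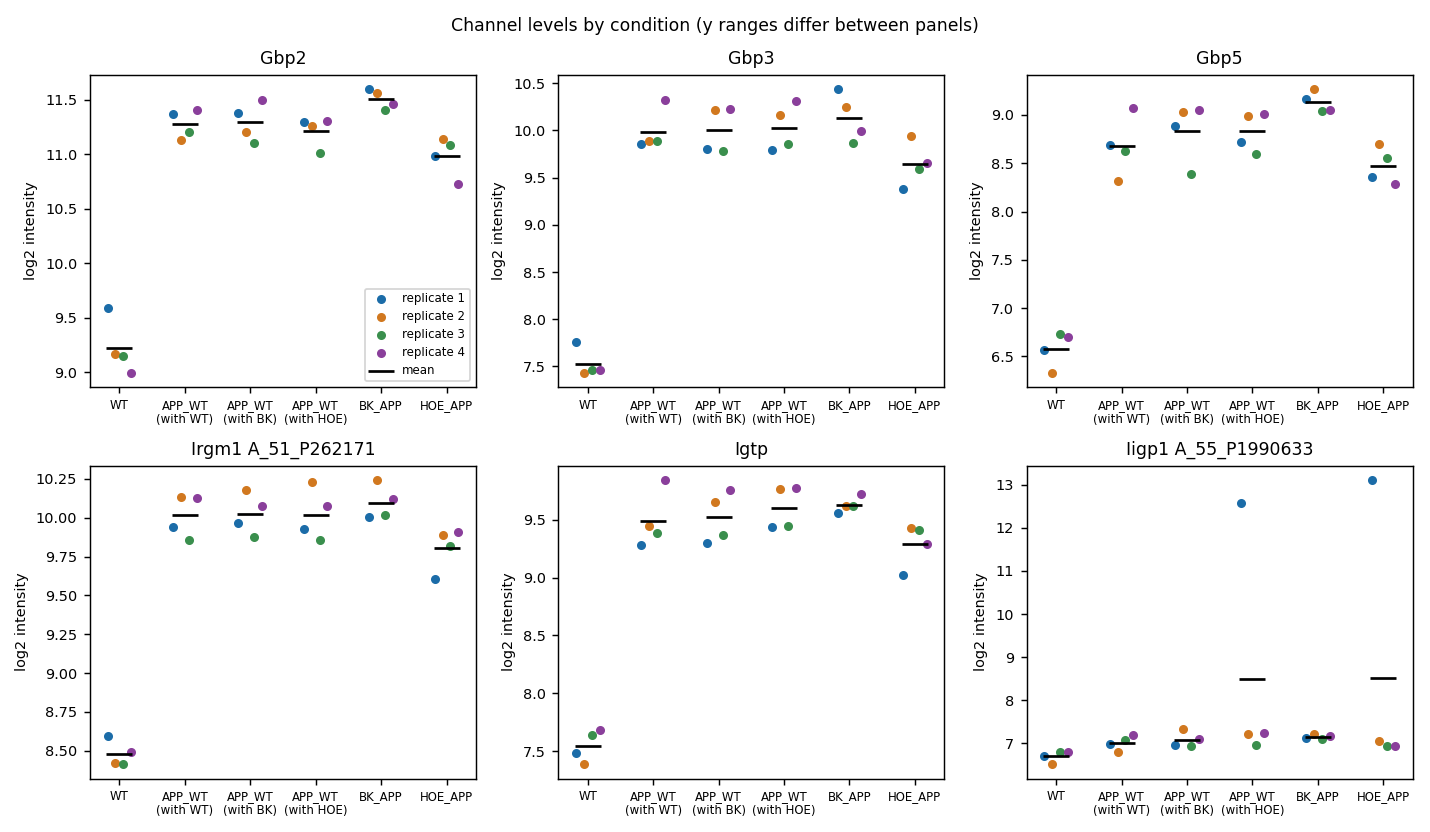
log2 intensity of 6 member probes in each channel, by condition (points, colored by replicate) with the mean (bar); APP_WT is shown separately for the arrays it shares with WT, BK_APP and HOE_APP. WT lies below every APPswe/PS1dE9 channel for Gbp2, Gbp3, Gbp5, Irgm1 and Igtp but not for the Iigp1 probe. The Iigp1 probe stands at 12.6 and 13.1 in both channels of HOE_APP array 1.

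One spot stood apart. Iigp1 probe A_55_P1990633 on HOE_APP array 1 had levels of 13.1 and 12.6 in its HOE_APP and APP_WT channels, while its 22 other channels lay between 6.52 and 7.34. It was the only expressed probe of that array that exceeded its median on the other arrays by more than 4 log2 units in both channels, and the scanner software had not flagged it. Results for this probe in HOE_APP are given with and without the spot.

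The culture is a mixture of cell types, and in RNA from a whole culture fewer cells of a type and less RNA per cell cannot be told apart. Of 12 microglia markers 11 were expressed, P2ry12 was not, and 9 were higher in APP_WT than in WT with none lower (median log2 fold change 1.16). Itgam (0.11) and Siglech (0.05) were expressed but not called. The summed linear intensity of all 12, P2ry12 included, overlapped between groups, at 22074 to 29539 in WT and 25761 to 35184 in APP_WT. The brightest probes weigh most in such a sum, whether or not they changed. Its overlap is therefore no measure of how far the single markers rose. Of 8 astrocyte markers 7 were higher (median 0.37), with summed intensities of 98404 to 120584 in WT and 135888 to 150483 in APP_WT. No T or NK cell marker was called, with Cd3d, Cd8a, Ncr1 and Gzmb not expressed, and none of the 5 peripheral myeloid markers on the array (Ccr2, S100a8, S100a9, Mrc1 and Lyve1) was expressed. Of 6 endothelial markers Cdh5 and Cldn5 were not expressed and 1 of the other 4 was higher, and of 7 pericyte and fibroblast markers Rgs5 was not expressed and 3 of the other 6 were lower. Of 8 neuron markers 2 were higher (Syt1 and Gad1) and 2 lower (Dcx and Map2), and of 8 oligodendrocyte markers none was higher and 1 was lower. Of 7 neural stem cell markers 2 were higher, Vim by 0.97 and Nes by 0.55, and 2 were lower, Hes5 at −0.63 and Pax6 at −0.16. These neural markers were named after their values were seen. The part of these cell types in the difference of the GTPases was not tested.

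The second comparison asked whether bradykinin moves the GTPases of transgenic neurospheres. No member probe and no other probe passed in BK_APP versus APP_WT, with 0.967 as the smallest adjusted p in limma, so the percentage of all expressed probes called was 0. At an unadjusted p below 0.05, 2 of the 13 members were higher (Gbp5 and Irgm1 probe A_55_P1981479) and none was lower, against 2.11% of all expressed probes higher. The log2 fold change was above 0 for 11 of 13 members, against 47.5% of all expressed probes, and above 0 on all 4 arrays for 3 members, against 5.07%. The median over the members was 0.08, with medians of 0.22, 0.06, 0.08 and −0.04 on arrays 1 to 4.

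Gbp5 had log2 ratios of 0.28, 0.24, 0.65 and 0.00097 in BK_APP versus APP_WT, with a mean of 0.29 and a 95% interval of 0.02 to 0.57 (limma, adjusted p = 0.967). Array 4 showed next to no difference, and without replicate 1 or without replicate 3 no member stayed at an unadjusted p below 0.05. For Gbp2 the ratios were 0.22, 0.36, 0.30 and −0.04, and for Irgm1 probe A_55_P1981479 they were 0.37, 0.33, 0.02 and −0.08. Gbp3 spread most, with 0.64, 0.03, 0.08 and −0.23, so its mean of 0.13 was smaller than its SD of 0.37. Igtp gave 0.25, −0.03, 0.25 and −0.04 and Irgm2 gave 0.46, 0.13, −0.15 and −0.15, with arrays on both sides of 0. The remaining means were 0.02 for Gbp7, 0.07 for the other Irgm1 probe, 0.08 for Ifi47, −0.03 and 0.10 for the Gbp6 probes, and 0.06 and −0.10 for the Iigp1 probes. The upper ends of the 95% intervals of the 13 probes lay between 0.06 and 0.57.

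The third comparison asked the same of HOE-140. Again no probe passed in HOE_APP versus APP_WT, with 0.924 as the smallest adjusted p of a member in limma and 0 percent of all expressed probes called. In the likely direction, 12 of the 13 members were lower at an unadjusted p below 0.05 and none was higher, against 2.71% of all expressed probes lower. The same 12 had a log2 fold change below 0, against 49.8% of all probes, and 7 members were below 0 on all 4 arrays, against 4.97%. The median over the members was −0.24, with medians of −0.31, −0.17, −0.12 and −0.48 on arrays 1 to 4. The count of 12 dropped to 7 without replicate 1 and to 6 without replicate 4, the arrays with the lowest medians.

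Gbp3 was lowest, with log2 ratios of −0.42, −0.21, −0.26 and −0.66, a mean of −0.39 ± 0.20 (SD, n = 4) and a 95% interval of −0.65 to −0.13 (limma, adjusted p = 0.924). For Irgm2 the ratios were −0.10, −0.17, −0.51 and −0.72, and their mean of −0.37 had the smallest unadjusted p of the members, 0.000824 in limma. Gbp5 gave −0.36, −0.30, −0.04 and −0.73 and Igtp gave −0.41, −0.34, −0.03 and −0.49, so that array 4 was lowest and array 3 nearest to 0 for both. Gbp2 shared this order with −0.31, −0.12, 0.07 and −0.57. The Gbp6 probes, unlike in the comparison with WT, had nearly the same mean, −0.24 each, and the Irgm1 probes had −0.21 and −0.16. Gbp7 gave a mean of −0.21 and Ifi47 of −0.15, each with 1 array above 0.

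The only member with a mean above 0 was Iigp1 probe A_55_P1990633, at 0.02, where the spot described above gave 0.54 and the other arrays gave −0.17, −0.02 and −0.29. Without that spot the fitted value was −0.16. The other Iigp1 probe gave −0.02, −0.17, −0.40 and −0.48. Without the spot the count of 12 members and their median of −0.24 stayed as they were.

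Because the labels of the HOE_APP arrays conflict, the channels were also set against the APP_WT channels of the BK_APP arrays with the same replicate number, which by the design hold the same sample. For all 12 probes other than the one with the outlying spot, the mean of the channel read as APP_WT was nearer to that APP_WT mean than the mean of the channel read as HOE_APP. Over the 48 pairs of probe and replicate it was nearer in 37, with median distances of 0.07 and 0.21 log2 units. Gbp3, for example, had mean APP_WT levels of 9.99, 10.01 and 10.03 in the arrays with WT, BK_APP and HOE_APP, and 9.64 in the channel read as HOE_APP. The channels compared as read share a dye and the others do not, so sample and dye cannot be told apart here. The probes vary together over the same few arrays, so the 48 pairs are not independent. The check therefore does not settle the direction. This check was chosen after the values were seen.

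The treatments were set against each other as BK_APP minus HOE_APP in the same fit. No probe passed (limma, adjusted p = 1.00 for all members, 0 percent of all expressed probes called). In the likely direction, 10 of the 13 members were higher in BK_APP at an unadjusted p below 0.05 and none was lower, against 1.2% of all expressed probes higher. All 13 differences were above 0, against 48.6% of all probes, and 9 were above 0 for all 4 pairs of arrays with the same number, against 8.46%. The median was 0.33. The count of 10 fell to 4 without replicate 1. With the sign of HOE_APP turned, 1 of the 13 differences was above 0 and 12 were below, none above 0 for all 4 pairs and 1 below 0 for all 4.

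In the likely direction Gbp5 differed most, by 0.64, 0.54, 0.69 and 0.73 on the same-numbered arrays, with a mean of 0.65 (95% interval 0.26 to 1.04). Its SD over these pairs was 0.08, whereas its SD over arrays was 0.27 for BK_APP and 0.29 for HOE_APP alone. Both ratios of a number are taken against the same APP_WT sample, which drops out of the difference in that direction. The interval and the p-values of this contrast come from the limma fit, which treats the arrays as independent and does not use this pairing. With the sign turned the difference of Gbp5 was −0.06 ± 0.55 (SD over 4 pairs), and the one farthest from 0 was −0.37 ± 0.46, for Iigp1 probe A_55_P2410304. In the likely direction Irgm1 probe A_55_P1981479 had the smallest unadjusted p, 0.00262 in limma, with differences of 0.36, 0.42, 0.23 and 0.28. Irgm2 gave 0.56, 0.30, 0.36 and 0.56, Gbp2 gave 0.53, 0.48, 0.23 and 0.53, and Igtp gave 0.66, 0.31, 0.29 and 0.45. Gbp7, both Iigp1 probes and Ifi47 each had 1 pair below 0. No cell type marker passed in either treatment. At an unadjusted p below 0.05, 4 of 11 microglia markers were higher in BK_APP (median 0.10) and 1 was lower in HOE_APP (median −0.08), where all 11 lay between −0.19 and −0.01. In BK_APP minus HOE_APP all 11 microglia markers were above 0, between 0.06 and 0.35 (median 0.17), and 3 were higher at an unadjusted p below 0.05. These values too hold in the likely direction. Of 8 astrocyte markers 3 were lower in BK_APP and 2 in HOE_APP at an unadjusted p below 0.05, and none passed this threshold in BK_APP minus HOE_APP. Their part in the values of the GTPases was not tested.

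**Figure D4:**
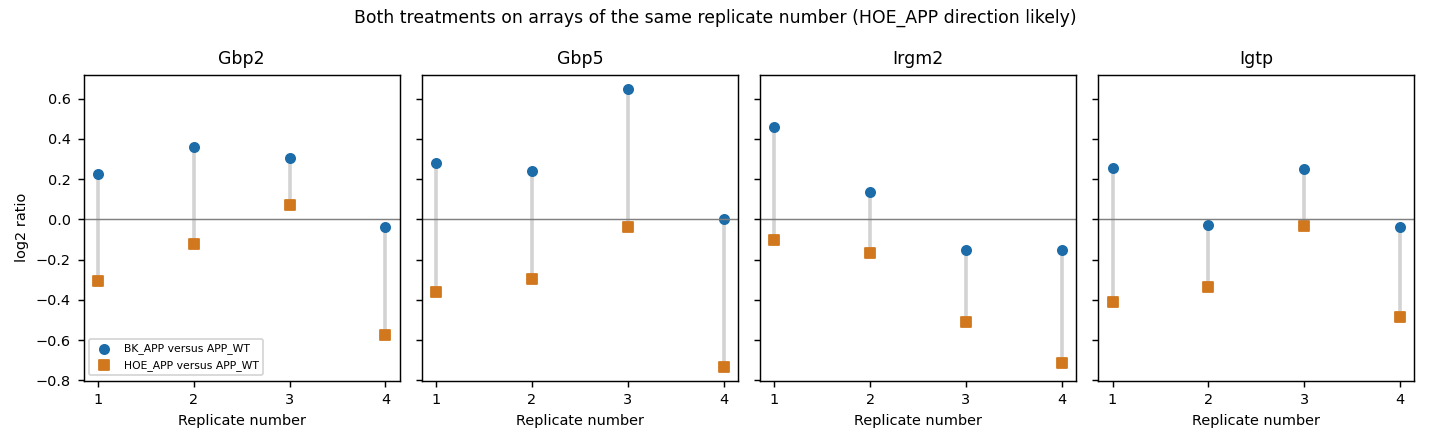
log2 ratios of BK_APP versus APP_WT (circles) and HOE_APP versus APP_WT (squares) for 4 members, joined by replicate number. In the likely direction of HOE_APP, circles lie above squares in all 16 pairs, although each set by itself reaches both sides of 0 or close to it. The 4 shown are among the 9 member probes with every pair above 0. Gbp7, Ifi47 and both Iigp1 probes, not shown, each had 1 pair below 0.

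Set in order by the fitted means, 10 of the 13 probes ran WT, HOE_APP, APP_WT, BK_APP from low to high in the likely direction of HOE_APP. With its sign turned, 10 ran WT, APP_WT, BK_APP, HOE_APP and 1 ran as before. WT was lowest for all 13 in both directions. These orders were not counted over all expressed probes. The members vary together and both treatments are set against the same APP_WT samples, so the counts are a description without a test. Only the step between WT and APP_WT was called, for 12 probes. The neighbours HOE_APP and APP_WT, and APP_WT and BK_APP, did not differ at the adjusted threshold for any probe.

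Upstream of the GTPases, the interferon genes themselves were little seen. Of 10 interferon and inducer genes, 8 were on the array and 3 were expressed. Ifnb1 was not. Ifng was higher in APP_WT than in WT (0.36, limma, adjusted p = 0.0103), with log2 ratios of 0.30, 0.87, 0.07 and 0.21, of which array 2 stood above the others. Receptor subunits were in part higher: Ifngr1 (0.66) and Ifngr2 (0.38) of the interferon-γ receptor and Ifnar2 (0.34) of the type I receptor rose, Jak2 fell by 0.21, and Ifnar1 gave −0.01. In all, 3 of 7 receptors and kinases rose and 1 fell.

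Of the transcription factors and feedback genes, 8 of 9 were higher in APP_WT than in WT. Irf1, the factor of the interferon-γ response, had log2 ratios of 1.06, 1.18, 1.10 and 1.65 (limma, adjusted p = 9.78e-06). Irf8, a myeloid interferon regulatory factor, rose by 0.94, Irf9 by 0.60 and the feedback inhibitor Socs1 by 0.28. Usp18, which removes ISG15 from proteins and dampens type I signalling, rose by 1.44 and was named after its values were seen. In BK_APP none of the 9 passed, and Irf1 had a mean of 0.23 with ratios of 0.31, 0.48, 0.17 and −0.04. None passed in HOE_APP either, where Irf1 had −0.09 and Irf8 0.00457.

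**Figure D5:**
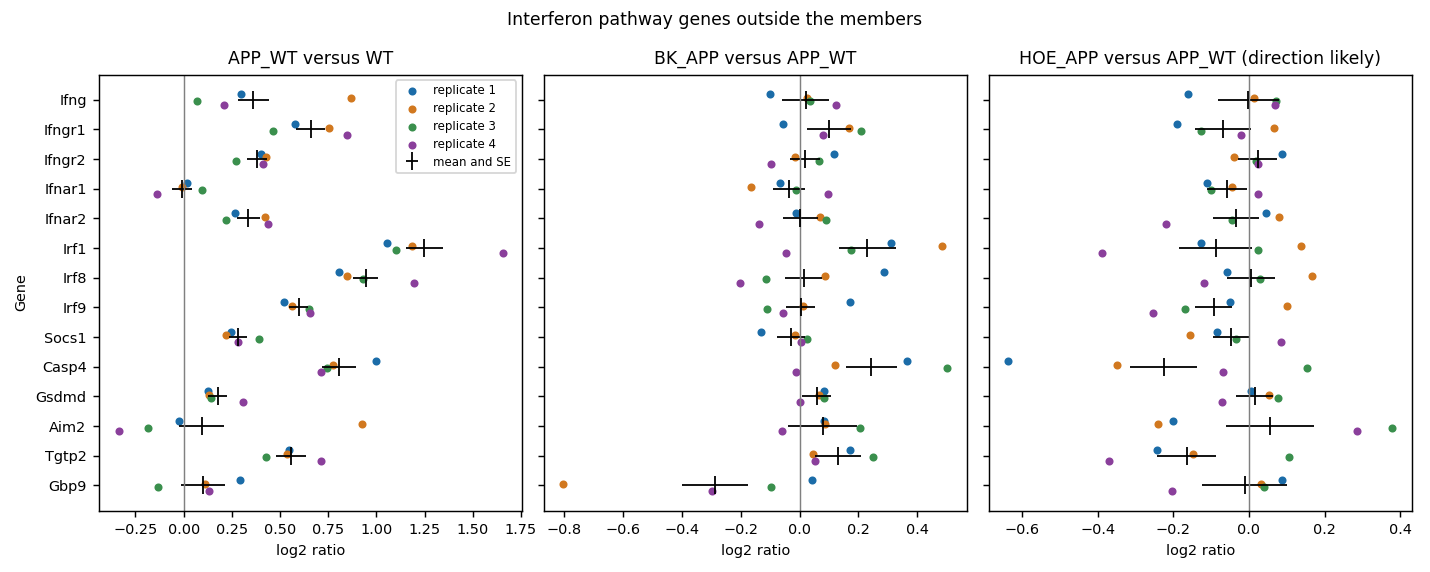
log2 ratios of 14 genes of the interferon pathway that are not members, per array (points, colored by replicate) with the fitted mean and its standard error. Of the genes plotted, Irf1, Irf8 and Casp4 stand highest in APP_WT versus WT while Ifnar1 lies at 0. In the other comparisons the means lie between −0.29 (Gbp9 in BK_APP) and 0.24 (Casp4 in BK_APP).

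Of 6 further GBP genes 2 were expressed and none passed, with Gbp9 at 0.10 and Gbp10 at 0.19, and Gbp4 was not expressed. In BK_APP versus APP_WT Gbp9 gave −0.29 (limma, unadjusted p = 0.0270), against the direction of most members, and Gbp10 gave −0.09. In HOE_APP versus APP_WT, in the likely direction, Gbp9 gave −0.01 and Gbp10 gave −0.20 (limma, unadjusted p = 0.0428 for Gbp10). Of 9 further IRG genes 4 were expressed, and 2 of these were higher in APP_WT: Tgtp2 (0.56) and Gm4951 (0.79). Tgtp1, a near-identical copy of Tgtp2, was not expressed by its own probe, so the value of either is uncertain as to which copy it stands for. Gm4951 had log2 ratios of −0.24, −0.17, −0.44 and −0.65 in HOE_APP versus APP_WT (unadjusted p = 6.23e-05, adjusted p = 0.915 in limma) and was named after its values were seen. Of the inflammasome genes that work with GBPs, 3 of 5 expressed rose in APP_WT: Casp1 (0.86), the protease of the inflammasome, Casp4 (0.81), a sensor of cytosolic lipopolysaccharide, and the pore-forming Gsdmd (0.18), while Aim2 gave 0.09 and Nlrp3 was not expressed. Casp1 was named after its values were seen. Of 12 genes of the autophagy conjugation machinery, with which IRGs and GBPs are targeted to vacuoles, 1 rose and 1 fell. None of the genes in these lists passed in BK_APP or HOE_APP.

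The members varied together over the arrays. Across the 12 arrays, the log2 ratios of each member correlated with the mean of the other members at a Pearson r of 0.92 to 0.996, except for the Iigp1 probes (0.57 and 0.72). Across the 8 arrays with treated neurospheres r was 0.45 to 0.94 for the same 11 probes and 0.21 and 0.56 for those of Iigp1. Outside the members, the genes whose probes followed the members' mean most closely over the 12 arrays were Ifit3 (0.998), Acod1, Ifi27, Oasl2 and Ccl3 (0.995), with 0.03 as the median r over 18501 probes. Over the 8 arrays they were Ifit3 (0.996), Parp14, B2m, Acod1 and Lgals3bp (0.969). The arrays share the APP_WT samples and, over 12, the large step from WT, so these values are a description without a test.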

How the data were processed

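The authors deposited the scanner output of 12 Agilent SurePrint G3 mouse arrays, with the median intensity of each spot and of its local background per channel before normalization, and a log10 ratio that the scanner software (Feature Extraction 11.0.1.1 per the file headers) made from background-subtracted, dye-normalized signals. They also deposited a table of log2 ratios, whose 12 columns followed the scanner ratios with r of at least 0.9986 in the direction used here and had medians between −0.155 and 0.036; its normalization is not given in the sources used here. Intensities were corrected by normexp (offset 50), normalized by loess (span 0.3, weight 0 for control and uneven spots) in limma 3.58.1 (R 4.3.3, data.table version 1.17.8), and spots of a probe were averaged. One limma model over 12 arrays had a mean and a dye coefficient per comparison (6 residual and 4.56 prior degrees of freedom). Tests were two-sided and adjusted by Benjamini-Hochberg at 0.05. Channel levels are log2 intensities after loess and Aquantile scaling. Probes were named by RefSeq accession (27509 of 29150 matched) through a table of GRCm38.p6, used for names and promoter sequence only, since the array design is on another build. Between 45.2% and 60.1% of spots were well above background per array; arrays give no read depth, and their number limits the precision.

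Members, gene lists and the rule for named genes (all member probes, the 5 genes most like the members over 12 and over 8 arrays, set genes of the interferon pathway, and unexpressed cell markers) were chosen with earlier results of these data known. One gene of the pathway lists is not reported here. A listed gene was represented by its brightest expressed probe. Same-numbered arrays deviated together in the 12 pairs of comparisons and numbers, with r of 0.299 to 0.672. Signs were turned where APP_WT is the numerator. The dye layout that the comparisons share can add to these values. With the dye effect removed r was 0.205 to 0.507. Replicates 1 and 2 then mirror each other, as do 3 and 4, so these 12 values are not separate. The design text counts 4 APP_WT replicates, so the numbers were taken to pair the samples through APP_WT. The HOE_APP part of this rests on its likely direction. The model was tested on simulated data with independent noise on each array. Those data held no shared APP_WT samples, so the test does not cover this feature of the design. The study's own tests, SAM and rank products, were not run. Figures and promoter searches used Python 3.11.15, pandas 2.3.3 and matplotlib 3.10.9.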

Additional observations from a re-analysis of the deposited data

Results flagged for a closer look

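Among 39 pairs of member probe and comparison, 2 had 1 array apart from the other 3 in log2 ratio, about as many as chance gives at 1 in 20. Irgm2 in APP_WT versus WT stood at 1.88 on replicate 4 against 1.39 to 1.46 on the others, and Iigp1 probe A_55_P1990633 at 0.39 on replicate 4 against 0.27 to 0.28.

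Among 78 pairs of member probe and condition, 6 had 1 channel apart in level. Iigp1 probe A_55_P1990633 stood at 13.1 in HOE_APP and at 12.6 in the APP_WT channel of the same spot on replicate 1, against 6.94 to 7.05 and 6.95 to 7.24 on the other replicates. Gbp3 stood at 7.76 in WT replicate 1 against 7.43 to 7.47, and at 10.3 in APP_WT replicate 4 of the arrays with WT against 9.85 to 9.88. Gbp2 stood at 11.01 in APP_WT replicate 3 of the arrays with HOE_APP against 11.26 to 11.30, and Gbp6 probe A_55_P2052380 at 9.44 in APP_WT replicate 3 of the arrays with WT against 9.15 to 9.19. Chance flags about 1 in 20 such pairs.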

How the results depend on the processing

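In APP_WT versus WT, 11 of the 13 member probes kept their call and direction under all 13 alternatives, and the Iigp1 probes did not. In BK_APP, HOE_APP and their difference no member was called under any alternative. The median log2 fold change over the members in APP_WT versus WT was 1.36 with a normexp offset of 16, and 1.82 with the scanner software log ratio and with the deposited table, under which that of BK_APP minus HOE_APP was 0.46. With the sign of HOE_APP turned the medians were 0.24 for HOE_APP and −0.14 for BK_APP minus HOE_APP, and 3 members in place of 10 had an unadjusted p below 0.05 in that difference. Members at an unadjusted p below 0.05 numbered 1 in BK_APP with an offset of 16 or without a dye coefficient, and 6 in HOE_APP with median centring in place of loess. Leaving out replicates in turn gave 0 to 4 members at an unadjusted p below 0.05 in BK_APP, 6 to 11 in HOE_APP and 4 to 10 in the difference. Pathway genes called in APP_WT versus WT numbered 13 with each comparison fitted on its own 4 arrays and 12 to 19 with a replicate left out. Over all expressed probes the calls in APP_WT versus WT went from 5446 to 2367 with separate fits and to 8263 with the replicate block. The replicate block left the 12 member calls in APP_WT versus WT and added that of Iigp1 probe A_55_P1990633 (adjusted p = 0.0151), and it gave 0 member calls in the other comparisons. Leaving out the outlying Iigp1 spot, an alternative chosen after seeing the data, changed its own value in HOE_APP to −0.16 and no count of members. The causes of these changes were not tested. Probes near background in WT, such as Gbp5 and Gbp7, have ratios that depend on the offset.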
